A study of Mus musculus with 4 samples.

Results

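The heart muscle cells described here are 74 mouse fetal cells in which transcripts of the cardiac contractile apparatus were counted. They were found among 9800 cells of stage E14.5 (days of embryonic development), and among 43351 cells in the whole series. A cell was taken when it had at least 500 detected genes, at least 3 UMIs of Tnnt2 and at least 8 UMIs of Myl7, Myh6, Myl4 and Nppa together. It also had to lack any UMI of Epcam, a marker of epithelium, and of Cdh5, a marker of endothelium. A UMI is a molecular barcode, so that each UMI stands for 1 captured transcript. The cells were thus chosen by their own transcript counts, and the level of these genes in them is not a finding.

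The cells came from 2 single-cell libraries, each labelled as lung of Cyp27a1-/- fetuses at E14.5. In the first group the mother was Cyp27a1-/- as well (the null mother), and 19 of 4843 cells met the rule. In the second group the mother was Cyp27a1+/- (the heterozygous mother), and 55 of 4957 cells met it. All fetuses are labelled as lacking Cyp27a1, the sterol 27-hydroxylase that makes 27-hydroxycholesterol, and the mother's genotype is the labelled difference between the 2 groups. The libraries also held different fetuses and differed in depth and in the share of cells scored female. Of other cells with at least 500 genes, 50.9% were scored female with the null mother and 36.1% with the heterozygous mother. Scored male were 711 of 3849 and 792 of 4038 of these cells. The score needs UMIs of the sex-linked gene Xist or of Y genes, so these shares do not show that the sex of the fetuses differed. The part of these differences in the results was not tested. The question is what a mother without the enzyme changes in fetuses that lack it themselves. With 1 library a group there is no replicate error and no test. Intervals given in brackets are exact 95% intervals that cover counting error only, and how many fetuses a library pooled is not given in the sources used here.

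Heart muscle contracts through sarcomeres, in which thick filaments of myosin pull on thin filaments of actin under the control of troponin and calcium. The chambers use different forms of these proteins. In the fetal mouse the myosin light chains Myl7 and Myl4, the heavy chain Myh6, the hormone Nppa and the calcium pump inhibitor Sln are known as atrial genes, while Myl2, Myl3 and Myh7 are known as ventricular genes. In mice, muscle of atrial type also ensheathes the pulmonary veins up to the lung, whereas ventricular muscle is not part of the lung. The labels name lung only, and where in the chest these cells were taken from is not recorded in them.

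The E14.5 library of the null mother held 53293964 UMIs with a median of 6387 per cell, and that of the heterozygous mother held 47005276 UMIs with a median of 3697. Members held 232707 UMIs from the null mother's fetuses and 729324 UMIs from the heterozygous mother's fetuses. Per member cell the lowest, median and highest totals were 691, 10200 and 48020 UMIs with the null mother, and 883, 8090 and 48160 UMIs with the heterozygous mother. The 2 libraries shared 94 cell barcodes. Of these, 1 belonged to a member of the heterozygous mother's library, and no barcode was a member in both. In the libraries labelled E18.5, which were used here only for a count, 9 cells with the null mother and 2 with the heterozygous mother met the same rule.

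The label was checked with 10 heart muscle markers that the rule did not use: Actc1, Tnni3, Tnni1, Tnnc1, Ttn, Actn2, Mybpc3, Ryr2, Nkx2-5 and Gata4. Members had a median of 8 of these 10 detected with the null mother and 7 with the heterozygous mother, and other cells with at least 500 genes had a median of 0 in both libraries. At least 5 of the markers were present in 17 of 19 and 42 of 55 members, against 13 of 3849 and 19 of 4038 other cells. The marker genes of skeletal muscle were low, with 2 UMIs of 12 genes in all members of the null mother's library and 14 UMIs in those of the heterozygous mother's. In CPM (UMIs scaled to the total of the set) this list was still higher in members than in other cells. It summed to 8.59 and 5.58 CPM with the null mother and to 19.2 and 4.72 CPM with the heterozygous mother. Myod1, Myf5, Myog, Pax7, Myh3 and Myh8 were at 0 in the members of both libraries. Most of the cells that met the rule thus carried markers of the label, and the cells low in Actc1 described below carried fewer. The lung epithelium list summed to 271 and 365 CPM in members with the null and the heterozygous mother, and to 2246 and 750 CPM in other cells. The rule's condition on Epcam bears on this list. With the heterozygous mother 3 lists besides skeletal muscle were higher in members than in other cells: lung mesenchyme at 4043 and 3086 CPM, smooth muscle at 1894 and 859 CPM, and mesothelium and epicardium at 860 and 177 CPM. Of the 1381 smooth muscle UMIs in these members, 779 came from 1 cell low in Actc1. With the null mother lung mesenchyme summed to 662 CPM in members and 2897 CPM in other cells, smooth muscle to 937 and 755 CPM, and mesothelium and epicardium to 51.6 and 138 CPM.

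The thresholds cut through a continuous range. Just inside them, 2 members with the null mother and 5 with the heterozygous mother had 3 or 4 Tnnt2 UMIs, and 2 and 4 members had a sum of 8 to 10 UMIs over Myl7, Myh6, Myl4 and Nppa. Just outside, 22 and 29 cells had enough Tnnt2 but too small a sum, and 16 and 15 of these carried Actc1, the cardiac actin, at 0.2% or more of their UMIs. Of the same cells 7 and 12 carried Myl2 at 0.1% or more. The 4 genes of the sum are mostly atrial, and such cells were left out of the members.

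The genes that set these cells apart among themselves were Myl3 and Myh7 on one side and Myh6 and Nppa on the other. The 250 bases before the annotated start of these genes are shown because the results turn on them. They are from RefSeq on GRCm38.p6 (mm10), 5′ to 3′ on the strand of the gene, and lie at chr9:110763428-110763677 (plus strand) for Myl3, chr14:54994550-54994799 (minus strand) for Myh7, chr14:54966608-54966857 (minus strand) for Myh6 and chr4:148000472-148000721 (plus strand) for Nppa. Capitals mark matches on either strand. The motifs searched were the CArG box, bound by serum response factor, the core GATAA of sites known for GATA factors, the core CATTCC of sites known for TEAD factors, and the core AAGTG of sites known for Nkx2-5.
Myl3: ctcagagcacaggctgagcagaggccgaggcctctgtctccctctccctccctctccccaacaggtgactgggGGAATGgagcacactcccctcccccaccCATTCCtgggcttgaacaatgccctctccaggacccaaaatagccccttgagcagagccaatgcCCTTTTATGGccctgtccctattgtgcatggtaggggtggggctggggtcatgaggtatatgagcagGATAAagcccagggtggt
Myh7: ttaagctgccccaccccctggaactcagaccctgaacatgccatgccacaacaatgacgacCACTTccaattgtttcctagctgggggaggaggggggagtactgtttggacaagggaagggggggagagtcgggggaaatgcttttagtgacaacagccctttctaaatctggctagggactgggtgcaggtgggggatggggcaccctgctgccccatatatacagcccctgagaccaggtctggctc
Myh6: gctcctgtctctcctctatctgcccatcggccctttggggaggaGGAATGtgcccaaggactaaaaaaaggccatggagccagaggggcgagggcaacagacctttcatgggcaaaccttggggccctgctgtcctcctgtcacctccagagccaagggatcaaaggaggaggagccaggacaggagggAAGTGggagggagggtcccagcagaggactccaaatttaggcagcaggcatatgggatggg
Nppa: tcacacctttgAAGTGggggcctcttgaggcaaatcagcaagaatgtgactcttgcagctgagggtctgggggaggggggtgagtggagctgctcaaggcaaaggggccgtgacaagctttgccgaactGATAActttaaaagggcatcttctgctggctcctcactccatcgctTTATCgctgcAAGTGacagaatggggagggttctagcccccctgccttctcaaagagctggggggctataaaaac
The window of Myl3 held a CArG box that began 85 bases before the start, GATAA at 18 bases, and CATTCC at 149 bases and, on the other strand, at 177 bases. The window of Myh7 held AAGTG on the other strand, at 189 bases, and no other match. The window of Myh6 held CATTCC on the other strand at 206 bases and AAGTG at 61 bases. The window of Nppa held GATAA at 121 bases and, on the other strand, at 75 bases, with AAGTG at 239 and 65 bases. Of 32851 windows of the same length over 27025 genes, a CArG box was present in 1.47%, the GATA core in 22.6%, the TEAD core in 12.6% and the Nkx2-5 core in 40.7%. Matches to letters this short are descriptions and not sites. Myh6 and Myh7 are neighbours on chromosome 14, at 54941921 to 54966927 and 54970684 to 54994626 (mm10, GENCODE M21), both on the minus strand.

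The members fell into 3 kinds by the share of Actc1 and Myl2 among a cell's UMIs. Cells with Actc1 at 0.2% or more were split into Myl2-rich cells, with Myl2 at 0.1% or more, and Myl2-poor cells, and cells under 0.2% Actc1 are called Actc1-low. These limits were set after the values had been seen. No member with enough Actc1 lay within 2 times of the Myl2 limit: the highest share below it was 0.00278% and the lowest above it 0.210%. The Myl2 split was therefore clear, with 25 of the 26 Myl2-poor cells at 0 Myl2 UMIs. Around the Actc1 limit 8 members lay within 2 times of it, and 6 had no Actc1 UMI at all.

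**Figure D1:**
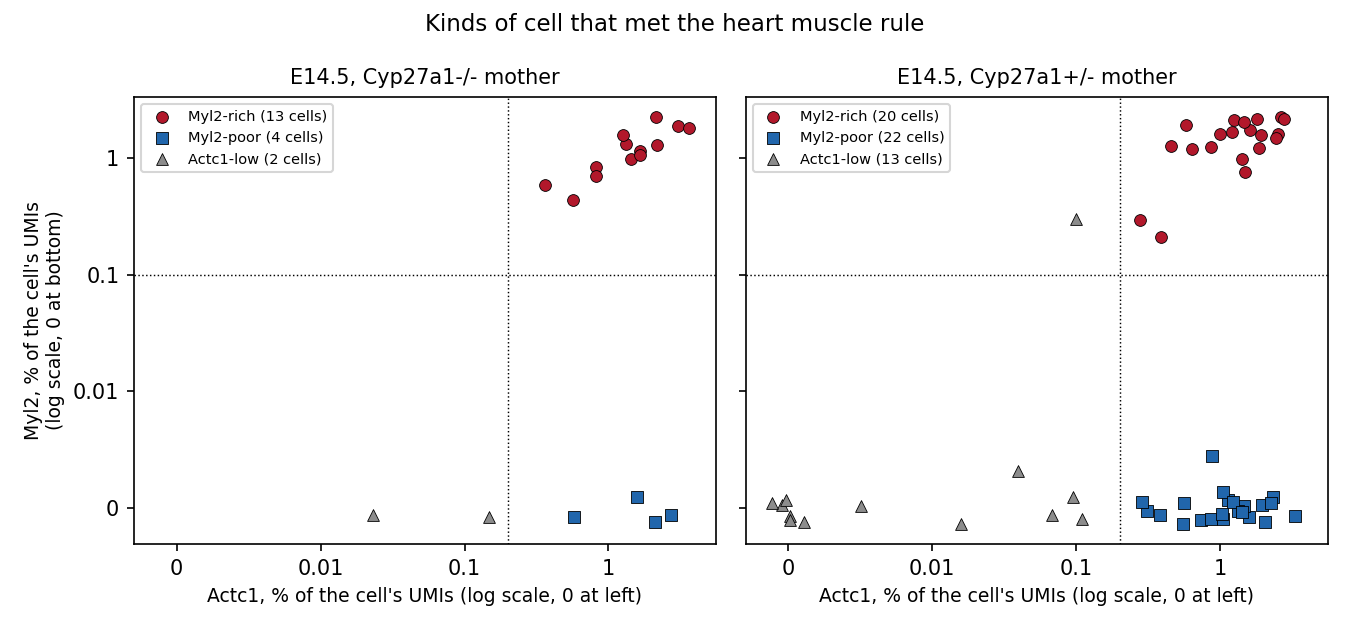
Share of a cell's UMIs from Actc1 (horizontal, percent, log scale with 0 at the left) and from Myl2 (vertical, percent, log scale with 0 at the bottom), 1 point per member, with cells at 0 spread slightly to be visible. Dotted lines stand at 0.2% and 0.1%. Of the members, 13 with the null mother (left) and 20 with the heterozygous mother (right) lie in the upper right corner.

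With the null mother 13 members were Myl2-rich, 4 were Myl2-poor and 2 were Actc1-low. With the heterozygous mother 20 were Myl2-rich, 22 were Myl2-poor and 13 were Actc1-low. In UMIs, the Myl2-rich cells held 191375 and 190829 with the null and the heterozygous mother, a close match. The Myl2-poor cells held 12054 and 248578 UMIs, so that the atrial-type side of the null mother's library rests on a small sum. Of the 10 markers that the rule did not use, Myl2-rich cells had a median of 9 with the null mother and 7 with the heterozygous mother. Myl2-poor cells had 5.5 and 8, and Actc1-low cells 5 and 3.

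The Actc1-low cells were mixed. With the heterozygous mother, 7 of 13 had 20 or more UMIs of the mesothelium and epicardium list, with a range of 43 to 132 and a median of 96. Mesothelium is the sheet of cells that covers lung and heart, and Upk3b, one of its markers, had 6 to 84 UMIs in these 7 cells. They also held 137 to 741 UMIs of the lung mesenchyme list. Their Tnnt2 was low, at 8 to 26 UMIs, their Myl7 ran from 11 to 127 UMIs, and Myh6, Nppa and Ttn were at 0. Of the 10 markers, Tnni1 had 9 to 21 UMIs in all 7 cells and Gata4 had 1 to 7 UMIs in 6 of them, while Actc1 and Tnni3 had at most 1 UMI in any cell. These cells met the rule through Myl7 and Tnnt2, and most of the markers were absent from them. Cells rich in mesothelium genes that did not meet the rule, 37 with the null mother and 55 with the heterozygous mother, had Myl7 at 145 and 233 CPM as well. In the null mother's library the 2 Actc1-low cells had 3354 and 25924 UMIs, with 5 and 6 UMIs of Actc1 and 3 and 5 of Tnnt2.

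Myl2-rich and Myl2-poor cells differed in the ventricular and atrial genes that the split did not use. Myl3, an essential light chain of ventricular myosin, ran from 65.0 to 157 UMIs per 10000 in the 13 Myl2-rich cells with the null mother, with a median of 114. In the 4 Myl2-poor cells it was 0 in 3 and 6.97 in 1. With the heterozygous mother the lowest, median and highest were 3.68, 129 and 188 in Myl2-rich cells and 0, 0.695 and 44.2 in Myl2-poor cells. The kinds did not overlap with the null mother and their ranges overlapped with the heterozygous mother. Myh7, the slow heavy chain of the fetal ventricle, had medians of 44.2 and 14.3 UMIs per 10000 in Myl2-rich cells with the null and the heterozygous mother. Its highest value in any Myl2-poor cell was 1.31 per 10000, while 1 Myl2-rich cell with the null mother and 2 with the heterozygous mother had none.

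The atrial genes were high in the other kind of cell. They include the genes of the rule, whose sum every member had to reach, but the rule did not fix which kind carried them. Myl7, the atrial regulatory light chain, had 28.9, 142 and 379 UMIs per 10000 (lowest, median, highest) in Myl2-poor cells with the null mother, and 14.3, 230 and 487 with the heterozygous mother. In Myl2-rich cells the same figures were 0, 5.28 and 97.3 with the null mother and 0, 10.1 and 51.2 with the heterozygous mother. Nppa, which encodes atrial natriuretic peptide, was present in 4 of 13 and 8 of 20 Myl2-rich cells, and in 4 of 4 and 19 of 22 Myl2-poor cells. Nppa UMIs were found in 0.935% and 3.64% of other cells. Sln, the atrial calcium pump inhibitor sarcolipin, was found in 0 of 13 and 1 of 20 Myl2-rich cells, and in 3 of 4 and 9 of 22 Myl2-poor cells.

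**Figure D2:**
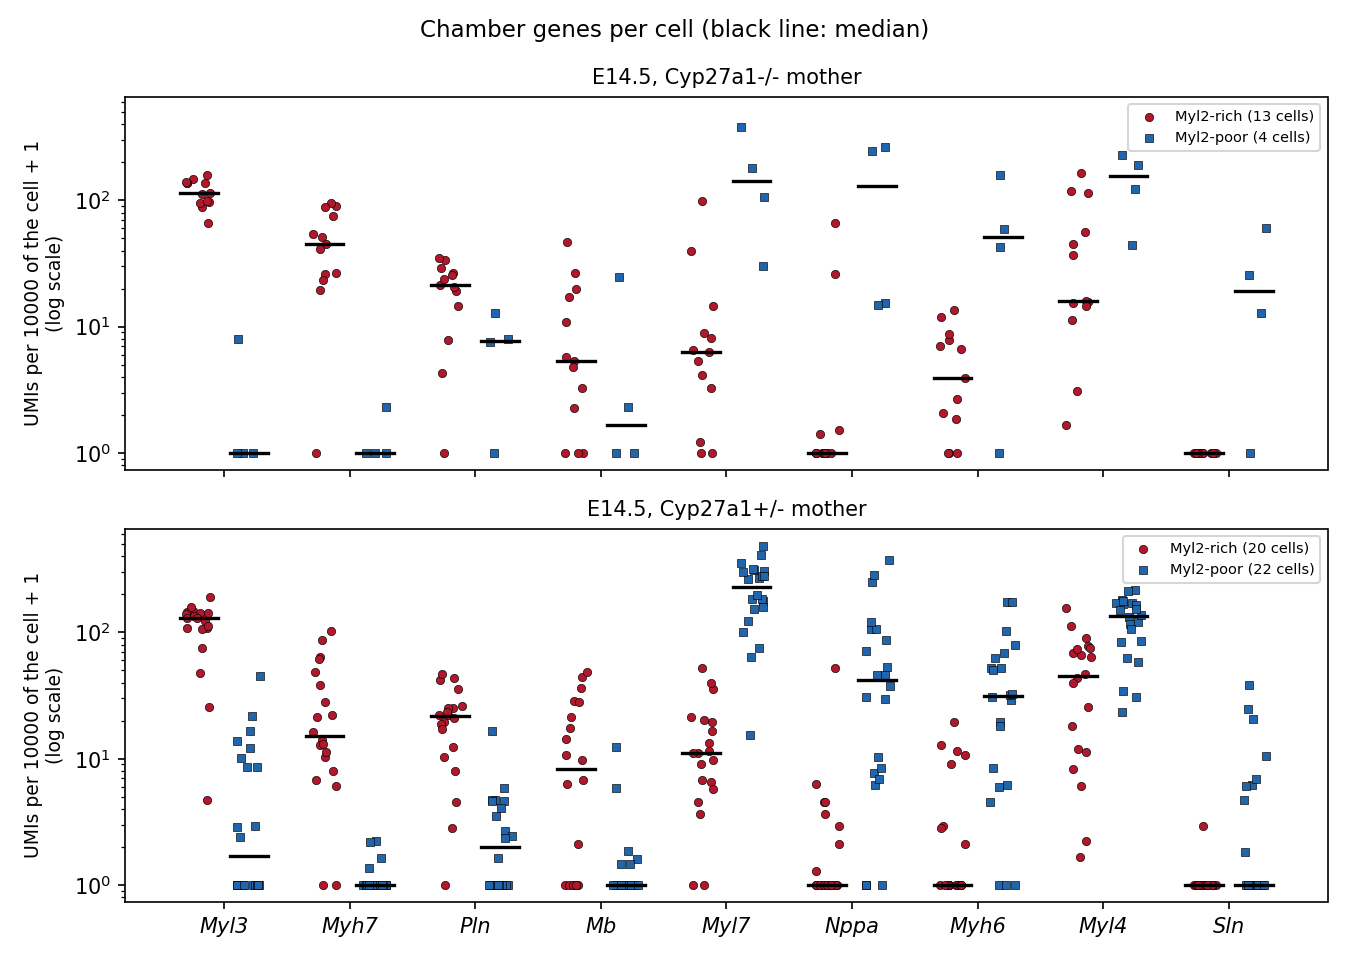
UMIs per 10000 of a cell, plus 1, on a log scale, for 9 chamber genes, 1 point per cell and a black line at the median, Myl2-rich cells left of Myl2-poor cells, with the null mother above and the heterozygous mother below. Myl3, Myh7 and Pln were high in Myl2-rich cells, and Myl7, Nppa and Myh6 in Myl2-poor cells, in both libraries.

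The 4 Myl2-poor cells with the null mother can be given in full. Their totals were 691, 840, 2868 and 7655 UMIs, and their Myl7 counts were 2, 15, 30 and 290 UMIs. Nppa had 1, 22, 4 and 186 UMIs in the same order of cells, Myl4 had 3, 16, 35 and 174, and Myh6 had 4, 0, 45 and 32. The cell of 7655 UMIs thus gave most of the Myl7 and Nppa of the group, and the cell of 691 UMIs met the rule with 10 UMIs in the sum and 3 of Tnnt2. Because these 4 cells are so few, sums of Myl2-rich over Myl2-poor cells are given for the heterozygous mother only.

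In that library 782 genes were measured, which means at least 50 UMIs in the kind with the higher level. Past 1.5-fold, 174 genes (22.3%) were higher and 180 genes (23.0%) were lower in Myl2-rich than in Myl2-poor cells, and the median log2 ratio was 0.17. With a size factor from the median of ratios 120 were higher and 201 lower, and the median was -0.02. The kinds were cut by Myl2 from the same cells, so these counts describe them and are no test. Of the ventricular list, 5 of 5 measured genes were higher, with a median log2 ratio of 4.50. Myl2 itself had 12880 CPM in Myl2-rich cells and 4.02 CPM in Myl2-poor cells, from 2458 UMIs and 1 UMI. Myh7 had 4066 and 20.1 CPM, a ratio of 202 (86.3 to 624). Myl3 had 11610 and 503 CPM, a ratio of 23.1 (19.3 to 27.9). Pln, the phospholamban that restrains the calcium pump of the ventricle, had 1860 and 213 CPM, and the transcription cofactor Lbh had 466 and 32.2 CPM.

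Of the atrial genes measured, 7 of 7 were lower in Myl2-rich cells, and the median log2 ratio was -3.95. Nppa had 89.1 CPM in Myl2-rich cells and 9039 CPM in Myl2-poor cells, a 102-fold difference. Myh6 had 330 and 5535 CPM, 16.8-fold lower, and Myl7 had 1237 and 18670 CPM, 15.1-fold lower. Myl4, known in the fetal ventricle as well, had 3668 and 11450 CPM, 3.12-fold lower. Of the troponins and actin common to both chambers, Tnnt2 (log2 ratio 0.45), Actc1 (0.27), Tnnc1 (0.32) and Tnni3 (-0.11) lay within 1.5-fold. Tnni1, the troponin I of fetal heart and slow skeletal muscle, was past it, at 5497 and 3347 CPM (0.71). The cardiac transcription factor Nkx2-5 had a log2 ratio of -0.07.

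Beyond the chamber genes, Myl2-rich cells had more transcripts of glycolysis and of the creatine system. Of the glycolysis and creatine list 12 of 16 measured genes were higher and 0 were lower, with a median log2 ratio of 1.17. Mb, the oxygen-binding myoglobin, had 2096 CPM in Myl2-rich cells and 28.2 CPM in Myl2-poor cells, from 400 and 7 UMIs, a ratio of 74.4 (35.8 to 186). Ckm, the muscle creatine kinase, had 692 and 109 CPM, and Ldha, a subunit of lactate dehydrogenase, had 2604 and 595 CPM. The glycolytic enzymes Tpi1, Pgk1, Pkm and Aldoa had log2 ratios of 1.83, 1.67, 1.35 and 1.28. The list of oxidative phosphorylation was near the median of all genes, at 0.31, with 7 of 30 genes higher and 3 lower. Fabp3, the heart fatty acid binding protein, had a log2 ratio of 1.39.

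Myl2-poor cells had more transcripts of calcium release and of the endoplasmic reticulum. Of the calcium handling list 7 of 10 measured genes were lower in Myl2-rich cells and 2 were higher, with a median log2 ratio of -1.58. Atp2a2, the calcium pump of the sarcoplasmic reticulum, had 445 CPM in Myl2-rich cells, 57.7% of it from 1 cell, and 2024 CPM in Myl2-poor cells. The release channel Ryr2 had 121 and 515 CPM, the calcium store protein Casq2 52.4 and 249 CPM, and the sodium-calcium exchanger Slc8a1 73.4 and 294 CPM. All 7 measured genes of the unfolded protein response list were lower, with a median of -1.59, among them Pdia6 at -3.03 and the chaperone Hspa5 at -1.95. The unfolded protein response list was also lower in cells with a low mitochondrial share, which is described next. In cells of at least 1000 genes and under 10% mitochondrial UMIs the calcium handling median was 0.32, so its direction did not hold in that selection.

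Single genes outside the lists separated the kinds too. The laminin receptor subunit Itga6 had 0 UMIs in Myl2-rich cells and 74 UMIs in 10 Myl2-poor cells, which makes it at least 18.9-fold lower at a floor of 3 UMIs. Angpt1, a ligand of endothelial cells, had 2 and 111 UMIs, a ratio of 0.0235 (0.00281 to 0.0868). Mest, an imprinted gene of fetal growth, had 78.6 CPM in Myl2-rich cells and 1537 CPM in Myl2-poor cells, and the imprinted genes Peg3 and Igf2r had log2 ratios of -2.15 and -1.75. The myosin light chain Myl1 had 41.9 and 624 CPM. The skeletal troponin Tnnt1 and the smooth muscle actin Acta2, both also made by fetal heart, were higher in Myl2-rich cells, at 3396 and 841 CPM for Tnnt1 and 2767 and 974 CPM for Acta2. The skeletal actin Acta1 was lower, at -1.68, but 93.3% of its 15 UMIs in Myl2-rich cells came from 1 cell.

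The members also differed in their mitochondrial share, which crossed the kinds. The share of UMIs from mitochondrially encoded genes was under 1% in 8 of 19 members with the null mother and in 25 of 55 with the heterozygous mother. Among other cells it was under 1% in 557 of 3849 and 946 of 4038. The members lay on both sides of this limit with few close to it: the highest share below was 0.947%, the lowest above was 1.44%, and 4 of 74 cells lay within 2 times of it. By kind, it was under 1% in 5 of 13 and 14 of 20 Myl2-rich cells, in 3 of 4 and 10 of 22 Myl2-poor cells, and in 0 of 2 and 1 of 13 Actc1-low cells.

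**Figure D3:**
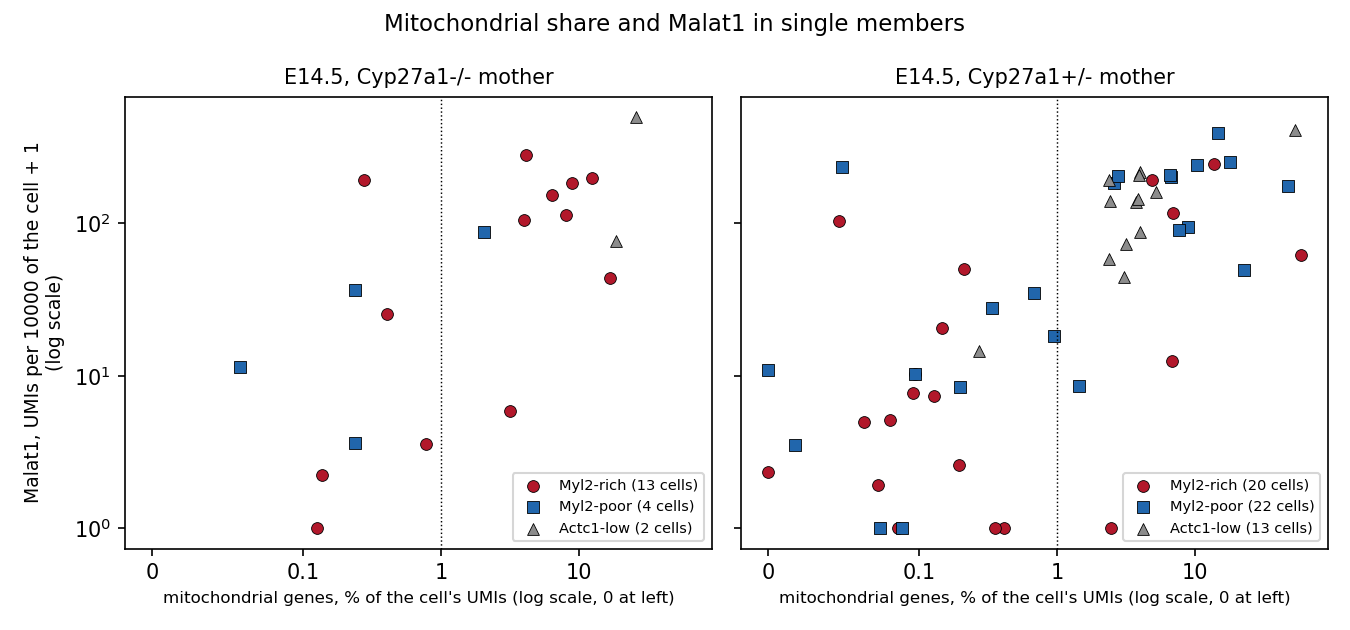
Mitochondrial share of a cell's UMIs (horizontal, percent, log scale with 0 at the left) and UMIs of Malat1 per 10000, plus 1 (vertical, log scale), 1 point per member, with the null mother left and the heterozygous mother right. The dotted line stands at 1%, and most cells left of it have little Malat1.

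Members with under 1% mitochondrial UMIs were poor in Malat1 too, a long RNA that stays in the nucleus. With the null mother Malat1 had 0, 6.54 and 192 UMIs per 10000 (lowest, median, highest) in cells under 1%, and 4.90, 113 and 498 in cells at or above it. With the heterozygous mother the figures were 0, 6.73 and 232 under 1%, and 0, 151 and 408 at or above. Xist, the nuclear RNA of the inactive X chromosome, was at 0 UMIs in all 33 members under 1%, while 22 of the 41 others were scored as female by it. Titin, a giant structural protein encoded by Ttn, followed the same line, with a median of 0 UMIs per 10000 under 1% with either mother, and of 51.6 and 0.339 at or above 1% with the null and the heterozygous mother. Within Myl2-rich cells at or above 1% the medians of Ttn were 67.4 and 29.4. The second lies between cells without much Ttn and cells rich in it, which held 0, 0, 1, 111, 195 and 238 UMIs. Tnnt2 was not lower under 1%, where it had medians of 173 and 121 per 10000 under 1% with the null and the heterozygous mother, against 89.8 and 41.3 at or above 1%, a set that holds nearly all Actc1-low cells. Cells under 1% were smaller in counts, with medians of 2164 and 2855 UMIs, against 17860 and 18460.

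Summed within a kind, the same genes led. In Myl2-rich cells of the heterozygous mother, 370 genes were measured between cells under and at or above 1%, of which 139 (37.6%) were higher and 37 (10.0%) lower under 1%. Ttn had 17 and 545 UMIs in the 2 sets, or 160 and 6424 CPM, and Malat1 had 708 and 15360 CPM. Atp2a2 (log2 ratio -3.42) and the chaperone Hsp90b1 (-3.35) were also among the 10 lowest, and Cited1, a transcription cofactor, at 859 and 94.3 CPM, was the highest. In Myl2-rich cells of the null mother, 80 of 317 measured genes (25.2%) were higher and 135 (42.6%) lower under 1%. The cells under 1% held 23584 UMIs there and the others 167791, so a gene higher under 1% needed a higher CPM to be measured. There Ttn had a log2 ratio of -4.89, Malat1 of -3.38, and Pam, Slc8a1 and Casq2 had no UMI in the cells under 1%. In Myl2-poor cells of the heterozygous mother, 108 of 398 measured genes (27.1%) were higher and 174 (43.7%) lower, with Hspa5 at -3.93 and Ttn at -3.44. Here too the cells under 1% held fewer UMIs than the others. The calcium handling list stood at -2.79 in the Myl2-rich cells of the null mother, at 0.26 in those of the heterozygous mother with 3 genes measured, and at -1.54 in these Myl2-poor cells. In the last, Malat1 had a log2 ratio of only -0.66, since 1 cell held most of its UMIs under 1%.

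The chamber contrast was as large without the cells under 1%. In cells at or above 1% with the heterozygous mother, 6 Myl2-rich against 12 Myl2-poor, 55 of 483 measured genes (11.4%) were higher and 130 (26.9%) lower. These sets held 84835 and 203469 UMIs, so a gene higher in Myl2-rich cells needed a higher CPM to be measured. The ventricular list had a median log2 ratio of 6.21 with 4 of 4 genes higher, and the atrial list of -3.60 with 5 of 5 lower. Glycolysis and creatine genes stood at 1.30, with 11 of 13 higher. The unfolded protein response list stood at -1.12, with 5 of 7 lower, and calcium handling at -1.03, with 4 of 7 lower.

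Between the mothers, members made up 0.392% (0.236 to 0.612) of the cells with the null mother and 1.11% (0.837 to 1.44) with the heterozygous mother. The ratio of the shares was 0.354 (0.198 to 0.605). By kind, Myl2-rich cells were 0.268% (0.143 to 0.459) and 0.403% (0.247 to 0.622), with intervals that overlap. Myl2-poor cells were 0.0826% (0.0225 to 0.211) and 0.444% (0.278 to 0.671), and Actc1-low cells were 0.0413% (0.00500 to 0.149) and 0.262% (0.140 to 0.448). The intervals of Myl2-poor cells did not overlap between the mothers under this rule, whose sum is of mostly atrial genes. With Actc1 in place of the sum, 20 of 33 and 31 of 57 cells were Myl2-rich, and intervals of Myl2-poor cells were not worked out. How much heart tissue entered a lung dissection is not recorded, and its part in these shares was not tested.

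**Figure D4:**
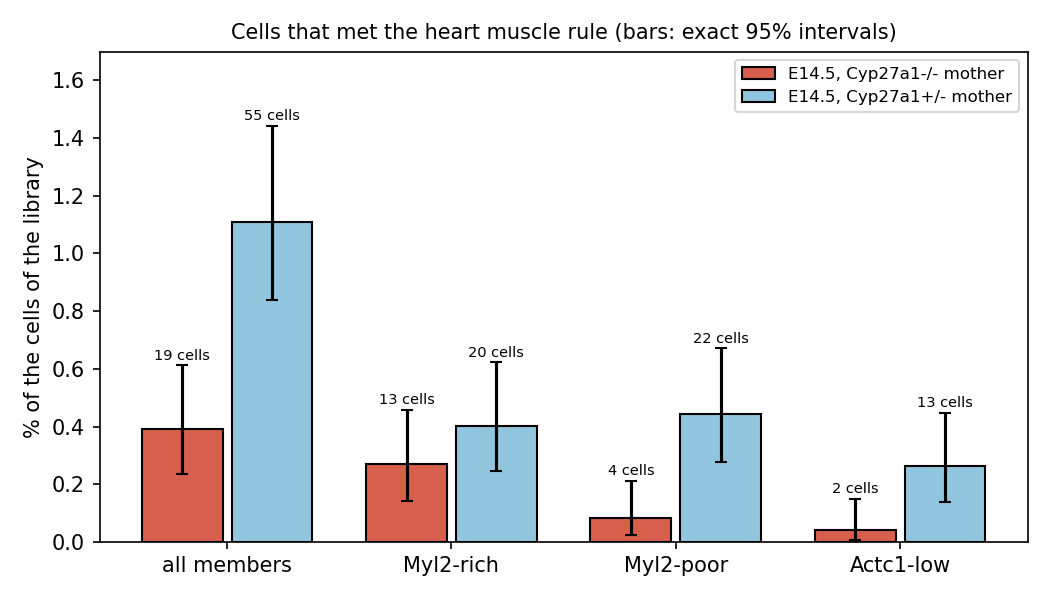
Percent of all cells of a library that met the rule, and that belong to each kind, with exact 95% intervals of counting error, the null mother left of the heterozygous mother. Under this rule, with its mostly atrial sum, the intervals of all members and of Myl2-poor cells do not overlap between the mothers, and those of Myl2-rich cells do.

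The share depended on the rule and on the cells counted. When every cell was thinned to 2000 UMIs, 6 of 3209 and 26 of 3031 cells met the rule, with 1634 and 1926 shallower cells left out, and the ratio was 0.218. With Actc1 at 0.2% or more in place of the sum, 33 and 57 cells were found, and the ratio was 0.593 (0.374 to 0.926). Members with Actc1 at 0.2% or more gave a ratio of 0.414 (0.221 to 0.744). Among cells scored male, 6 of 726 and 9 of 819 were members, a ratio of 0.752 (0.220 to 2.37), and among cells scored female 5 of 2052 and 17 of 1507, a ratio of 0.216 (0.0623 to 0.610). The ratio was below 1 in all of these, and among male cells its interval includes 1.

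Of the members, 68.4% (43.4 to 87.4) were Myl2-rich with the null mother and 36.4% (23.8 to 50.4) with the heterozygous mother. The difference was larger in cells with at least 1% mitochondrial UMIs, where 8 of 11 and 6 of 30 members were Myl2-rich. Under 1% it was 5 of 8 and 14 of 25. With Actc1 in place of the sum in the rule, 20 of 33 cells (60.6%) and 31 of 57 cells (54.4%) were Myl2-rich. The rule with the atrial sum therefore gave a larger difference in makeup than the rule without it.

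Over all members 1688 genes were measured between the mothers. Past 1.5-fold, 68 (4.03%) were higher and 320 (19.0%) lower with the null mother, and the median log2 ratio was -0.21. Scaled by the size factor, 148 were higher and 214 lower, and the median was -0.07. The sums mix the kinds of cell, which differ in number between the libraries. The part of this makeup in the list values below was not tested.

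The chamber lists went with the kinds. The ventricular list had a median log2 ratio of 1.42, with 5 of 5 measured genes higher with the null mother. Myl2 had 7542 CPM with the null mother and 3377 CPM with the heterozygous mother, Myl3 had 8642 and 3222 CPM, and Myh7 had 4512 and 1072 CPM. Of the atrial genes 7 of 9 were lower and 0 higher, at a median of -1.38. This list holds the 4 genes whose sum chose the members, so its values describe the cells chosen and support nothing further. Myl7 had 1869 and 7395 CPM, and Myh6 774 and 2033 CPM. Nppa had 1044 and 3219 CPM, and 76.5% of its UMIs with the null mother came from 1 cell. Sln, at 90.2 and 98.7 CPM, and the transcription factor Tbx20, at 120 and 126 CPM, had log2 ratios of -0.12 and -0.06.

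The lowest ratios belonged to genes of mesothelium and connective tissue. Dcn, a matrix proteoglycan, had 1 UMI with the null mother and 528 UMIs with the heterozygous mother, a ratio of 0.00594 (0.00015 to 0.0332). Upk3b had 1 and 236 UMIs, and the growth factors Ptn and Dlk1 had 6 and 646 UMIs and 10 and 484 UMIs. Rspo1, Krt7 and Aldh1a2 had 0 UMIs with the null mother and 85, 79 and 68 with the heterozygous mother, which makes them at least 9.04-fold, 8.40-fold and 7.23-fold lower at a floor of 3 UMIs. The mesothelium and epicardium list was lower in 4 of 4 measured genes (median -3.06), the lung mesenchyme list in 5 of 5 (-2.46) and the smooth muscle list in 5 of 6 (-1.50). For smooth muscle, 779 of the list's 1381 UMIs with the heterozygous mother came from 1 cell. In CPM the mesothelium list summed to 51.6 and 860, and it summed to 273 and 2097 within Actc1-low cells. The 608 UMIs of this list in the Actc1-low cells of the heterozygous mother were nearly all of its 627 UMIs in the members of that library.

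The highest ratios were those of Gal, Tgfbi, Ddc, Ckm, Cxcl12, Myh7, Kcne1, Pln, Myl3 and Lmo7. Several rested on 1 cell with the null mother: 63 of 63 Gal UMIs, 96.4% of the Tgfbi UMIs and 75.7% of the Cxcl12 UMIs. Gal encodes the neuropeptide galanin, and it had 0 UMIs with the heterozygous mother. Ckm was spread over cells, with 324 UMIs in 14 of 19 members with the null mother and 162 UMIs in 21 of 55 with the heterozygous mother, or 1392 and 222 CPM. Ddc, the enzyme that makes dopamine and serotonin, had 318 and 42.5 CPM from 8 cells in each library. Kcne1, a subunit of a cardiac potassium channel, had 215 and 52.1 CPM, with 54.0% of its UMIs with the null mother from 1 cell.

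Other lists of heart and cell functions with at least 3 measured genes had medians between -1.47 and 1.03. Oxidative phosphorylation had 4 of 30 genes higher and 0 lower (median log2 ratio 0.37), fatty acid oxidation 3 of 8 higher (0.33), and glycolysis and creatine 5 of 17 higher and 1 lower (0.32). Calcium handling had 3 of 8 higher and 1 lower (0.45). The thick filament list had 4 higher and 4 lower of 11 (0.35) and holds ventricular and atrial myosins alike, and the thin filament list 3 higher and 2 lower of 13 (0.38). The junction genes Cdh2 and Dsp, which join heart muscle cells at the intercalated disc, had log2 ratios of 1.03 and 1.07. The unfolded protein response list had 5 of 11 lower (-0.39), and the immediate early and heat shock list 4 of 6 lower (-0.78), with Fos at 43.0 and 137 CPM and Jun at 232 and 361 CPM. The oncofetal growth list, of imprinted and fetal genes, had 6 of 8 lower and 1 higher (-1.47), led by Dlk1 and by the cell cycle inhibitor Cdkn1c at 258 and 1504 CPM.

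Without the Actc1-low cells 1058 genes were measured over the members, of which 39 were higher and 108 lower. The atrial median was then -1.98, farther from 0, and the ventricular median 0.89, nearer to it. Calcium handling stood at -0.013, fatty acid oxidation at -0.060 and the thick filament list at -0.15. Glycolysis and creatine stood at 0.10 and oncofetal growth at -0.85. Among cells with Myl2 under 0.1%, 6 with the null mother and 34 with the heterozygous mother, 12 of 1071 measured genes were higher and 473 lower, and the lists of heart transcription factors and of ion channels and junctions turned round, to -1.23 and -1.47. In both selections the null mother's cells held fewer UMIs, far fewer in the second. A gene higher with the null mother thus needed a higher CPM to be measured. These counts and medians lean toward lower genes by that minimum and support no direction.

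Within Myl2-rich cells, 13 against 20, 650 genes were measured. Past 1.5-fold, 62 (9.54%) were higher and 74 (11.4%) lower with the null mother, and the median log2 ratio was -0.12. With the size factor, 77 were higher and 47 lower, with a median of 0.00. The ventricular genes were close between the mothers: Myl3 had a log2 ratio of -0.14, Pln of -0.01, Lbh of -0.21, Myh7 of 0.43 and Myl2 of -0.49, and 0 of 5 passed 1.5-fold. The pooled sums over all members had 5 of 5 of these past it.

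Myl7 and Myl4 belong to the sum that chose the members, so their values here describe the cells chosen and support nothing further. Myl7 stayed lower with the null mother, at 444 CPM against 1237 CPM with the heterozygous mother, a ratio of 0.359 (0.277 to 0.462). Per Myl2-rich cell it had a median of 5.28 UMIs per 10000 with the null mother and 10.1 with the heterozygous mother, and the ranges overlapped. With each cell given equal weight its log2 ratio was 0.022, so the direction depends on how the cells are weighted. Myl4 had 1860 and 3668 CPM. Tnnt1 had the lowest ratio of all measured genes, at 1019 and 3396 CPM, a ratio of 0.300 (0.254 to 0.353). It had medians of 5.88 and 7.35 UMIs per 10000 with highest values of 59.4 and 138, and 46.1% and 27.5% of its UMIs came from 1 cell each. Mb had 1066 and 2096 CPM, the noncoding RNA H19 491 and 1027 CPM, and Myoz2, a protein of the sarcomere's Z disc, 157 and 398 CPM.

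Ttn and genes of calcium release were higher with the null mother in Myl2-rich cells. Ttn had 7995 CPM with the null mother and 2945 CPM with the heterozygous mother, with an interval of their ratio from 2.46 to 3.00. That interval leaves out the spread between cells. With the heterozygous mother single cells held 238, 195 and 111 Ttn UMIs, and every other Myl2-rich cell held 8 or fewer. Atp2a2 had 1113 and 445 CPM, Ryr2 314 and 121 CPM, Slc8a1 324 and 73.4 CPM, and Casq2 308 and 52.4 CPM. The calcium handling list had 4 of 8 genes higher and 0 lower, with a median of 0.89, and the unfolded protein response list 4 of 5 higher, with a median of 1.00. In cells of at least 1000 genes and under 10% mitochondrial UMIs the calcium handling median was -0.29. Ttn, Atp2a2 and the unfolded protein response genes were among those low in cells with under 1% mitochondrial UMIs, and such cells were 5 of 13 with the null mother and 14 of 20 with the heterozygous mother.

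In Myl2-rich cells at or above 1%, 8 against 6, these ratios were smaller. Of 420 measured genes, 52 (12.4%) were higher and 25 (5.95%) lower, and the median log2 ratio was 0.15. Here the null mother's cells held more UMIs, 167791 against 84835, so a gene lower with the null mother needed a higher CPM to be measured. Ttn stood at 0.50, Atp2a2 at 0.47, Ryr2 at 0.49 and Hspa5 at 0.48, all below 1.5-fold, and the unfolded protein response list at 0.13 with 0 of 4 past it. Slc8a1 (1.22) and Casq2 (1.64) stayed past 1.5-fold, and with the heterozygous mother 8 of 9 Casq2 UMIs and 8 of 13 Slc8a1 UMIs came from 1 cell. Myl7, a gene of the rule's sum, was lower here as well, at 280 and 1426 CPM, and Mb had 763 and 1839 CPM. With the heterozygous mother 1 cell held 64 of 121 Myl7 UMIs and 69 of 156 Mb UMIs, and another held 38 and 66. For Myl4, 82.5% of the UMIs with the heterozygous mother came from 1 cell, and for Ankrd1, a stress-responsive protein of the sarcomere, 87.5%.

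**Figure D5:**
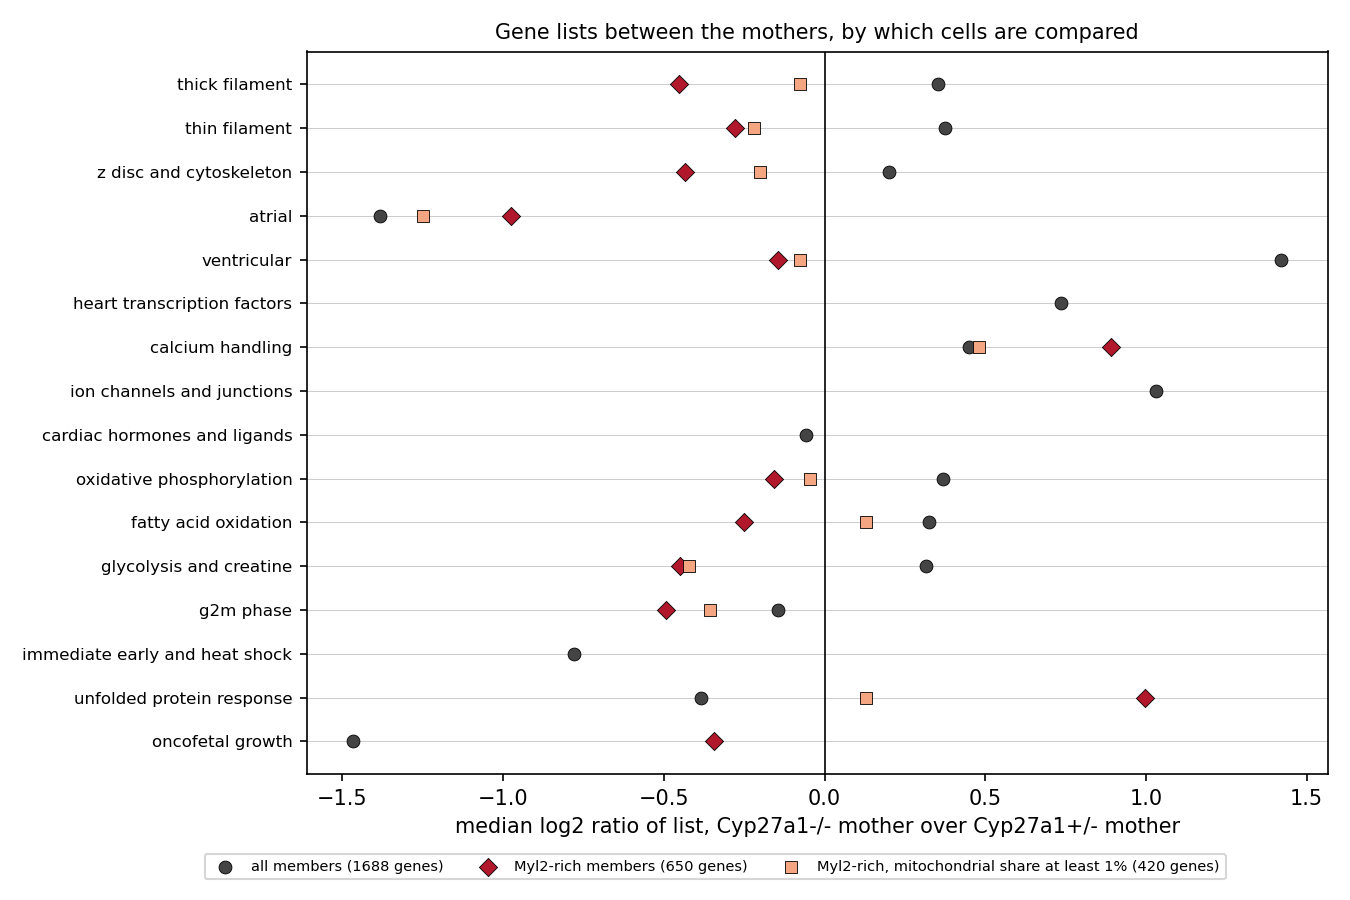
Median log2 ratio of each gene list, null mother over heterozygous mother, for all members (grey circles), Myl2-rich members (red diamonds) and Myl2-rich members with at least 1% mitochondrial UMIs (orange squares), shown where at least 3 genes of a list were measured. The ventricular list stands at 1.42 over all members and at -0.14 within Myl2-rich cells, and the unfolded protein response list at 1.00 within Myl2-rich cells and at 0.13 in those with at least 1%.

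Glycolysis and creatine genes turned round between all members, where their median was 0.32, and Myl2-rich cells. Within Myl2-rich cells the list had 1 of 16 genes higher and 5 lower with the null mother (median log2 ratio -0.45), and 1 of 14 higher and 4 lower at or above 1% (-0.42). Pgk1 had 1275 CPM with the null mother and 2075 CPM with the heterozygous mother, Pgam2 543 and 1048 CPM, and Gapdh 6302 and 9417 CPM. Ckm went the other way, at 1615 and 692 CPM. Oxidative phosphorylation had 2 of 29 higher and 1 lower (-0.16), and fatty acid oxidation 0 of 8 higher and 2 lower (-0.25).

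Transcripts of Mki67 and Top2a, 2 genes of dividing cells, were counted in members with both mothers, and a single UMI does not show that a cell divides. A UMI of either gene was present in 10 of 19 members (52.6%) with the null mother and 27 of 55 (49.1%) with the heterozygous mother, against 63.6% and 65.7% of other cells. At least 10 UMIs of the 2 genes were present in 4 and 7 members, of which 1 and 3 were Actc1-low, 3 and 2 Myl2-rich and 0 and 2 Myl2-poor. Of Myl2-poor cells, 0 of 4 with the null mother, at 691 to 7655 UMIs a cell, and 12 of 22 with the heterozygous mother had a UMI of either gene. Genes of the G2 and M phases stood at a median log2 ratio of -0.14 over members and of -0.49 within Myl2-rich cells. Between the kinds with the heterozygous mother, 5 of 8 of its genes were higher in Myl2-rich cells, with Birc5 at 1.30 and Hmgb2 at 1.24.

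Genes tied to sterols were too sparse in the members to compare. Of 24 genes of cholesterol synthesis and uptake 1 was measured, Pmvk, with 8 UMIs with the null mother and 53 with the heterozygous mother, and the list summed to 572 and 638 CPM. Of 10 targets of LXR, the receptor for oxysterols, 1 was measured, Apoe, with 12 and 127 UMIs. Cyp27a1 transcripts were counted in both libraries although the fetuses are labelled Cyp27a1-/-. Members had 81.7 and 68.6 CPM of Cyp27a1 with the null and the heterozygous mother, and other cells 20.2 and 18.3 CPM. Which stretch of Cyp27a1 (chromosome 1, 74713574 to 74737892, mm10) is missing in these mice is not given in the sources used here, so these counts do not check the genotype. Within Myl2-rich cells they were 99.3 and 142 CPM from 19 and 27 UMIs, a ratio of 0.702 (0.369 to 1.31); the interval includes 1.

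Against the other E14.5 cells, the values of members are a description, since the rule chose them by their counts. More genes were lower than higher in members in both libraries, and muscle genes had the largest ratios. With the null mother 243 of 9240 measured genes (2.63%) were past 1.5-fold higher and 3350 (36.3%) lower in members, and with the heterozygous mother 516 of 9360 (5.51%) and 1997 (21.3%). In both libraries 7121 genes were measured, of which 208 (2.92%) were past 1.5-fold higher and 1170 (16.4%) lower in each. After Tnnt2, the largest ratios were those of Ttn, Tnnc1, Tnni3, Myl2, Myl4, Myl7, Myl3, Tnni1, Nppa, Csrp3, Actc1, Cox6a2, Myh6 and Myh7. Tnni3, the cardiac troponin I, had 2905 CPM in members and 5.40 CPM in other cells with the null mother, and 2105 and 6.08 CPM with the heterozygous mother. Cox6a2, a muscle form of a cytochrome oxidase subunit, had 851 and 1.42 CPM, and 823 and 1.18 CPM. All 30 measured genes of oxidative phosphorylation were higher in members, with medians of 1.38 and 1.09. Members held 71.1% and 80.5% of all Tnnt2 UMIs of their libraries, and 82.4% and 87.2% of the Nppa UMIs, while the rest lay in cells outside the rule.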

How the data were processed

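The files hold UMI counts per gene and cell, deposited by the authors as 1 matrix of 31053 genes and 43351 cells. Per the submitters' processing notes, reads were processed with Cell Ranger 3.0.0 on mm10 and with Seurat 4.3.0. Per the labels' protocols, lungs were minced, digested with enzymes, strained, cleared of red cells and run on a Chromium system. No deposited cell had under 500 UMIs. What the names of the gene list and the cell list say is exchanged, as their contents show, and libraries were taken from the deposited annotation. The deposited files held no cell types of the authors.

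Members were found by the rule, and their UMIs were summed per library and kind and scaled to the total of the set (CPM). To log2 ratios 10 CPM were added on both sides, and to folds none. Genes count as measured from 50 UMIs on in whichever set has the higher CPM, and past 1.5-fold counts as higher or lower. Where 1 set holds fewer UMIs, a gene higher in that set needs a higher CPM to be measured. Counts of higher and lower genes are then not balanced. With 1 library per group no test was made. Ratio intervals are exact for Poisson counts and share intervals are Clopper-Pearson, at 95%. Only cells without Epcam and Cdh5 UMIs entered and no doublet caller was run; an alternative left out members with at least 5 UMIs per 10000 of lists of other cells. Cells were scored male by Y-linked UMIs without Xist, and female by the reverse. The steps were tested on simulated data. Python 3.11.15 with numpy 2.4.6, pandas 2.3.3, scipy 1.17.1 and matplotlib 3.10.9 was used.

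Members and lists were chosen with earlier results of these data known. The limits of 0.2% Actc1, 0.1% Myl2 and 1% mitochondrial UMIs were set after values had been seen. Named genes are the 10 largest and 10 smallest ratios of a comparison (haemoglobins, sex-linked Xist and Y genes, mitochondrial genes and unnamed models apart), the extreme and most abundant genes of lists, the 15 most abundant and 15 most enriched genes, all measured chamber genes and Cyp27a1. Malat1, Xist, Shox2, Hsp90b1, Acta1 and Tnnt1 between kinds were chosen after values were seen. The alternatives were other scalings, pseudocounts, UMI minimums, cell weights, rule thresholds, depth, quality and sex of cells.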

Additional observations from a re-analysis of the deposited data

Results flagged for a closer look

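In data outside the main measurement, 9 cells of the library labelled E18.5 with the null mother, and 2 of that with the heterozygous mother, met the same rule. The comparisons at E14.5 do not use these libraries. In all of them Actc1, Myl2, Myl3, Myh6, Myl4 and Nppa had 0 UMIs, and Tnni3 had 1 UMI in 1 cell and none in the others. They met the rule through Myl7, with 8 to 44 UMIs with the null mother and 20 and 16 with the heterozygous mother, and Tnnt2, with 8 to 29 UMIs and with 20 and 31. By their lack of Actc1 all of them belong with the Actc1-low cells of E14.5, and no Myl2-rich or Myl2-poor cell was found under this rule in the libraries labelled E18.5.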

How the results depend on the processing

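No paired analysis was possible because each group has 1 library. Of 259 planned or added values for all members' counts and lists, 188 stayed within the limits set for them; for 253 values of single genes named among all members it was 206. The cause of the changes below was not tested. A size factor moved the median of all genes from -0.21 to -0.07 over members, from -0.12 to 0.00 in Myl2-rich cells and from 0.17 to -0.02 between the kinds.

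The ratio of shares was 0.752 in male cells. The difference in the Myl2-rich share was 64.3 percentage points without possible doublets (32.1 as reported). Over members, higher genes numbered 148 with a size factor, 202 and 22 at minimums of 20 and 200 UMIs, 39 in female cells, 12 under 0.1% Myl2 and 39 with Actc1 at 0.2% or more. Lower genes numbered 880 and 64 at 20 and 200 UMIs, 518 with equal cell weights, 83 without possible doublets, 181 in male cells and 108 with Actc1 at 0.2% or more.

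List medians (log2) over members moved as follows. With a size factor they were 1.64 (ventricular), 0.87 (fatty acid oxidation) and 0.53 (glycolysis). At 20 UMIs the atrial median was -0.96, and at 200 UMIs the thick filament was -0.16 and immediate early -0.28. With equal weights they were -0.53 (atrial), 0.80 (ventricular), 0.031 (transcription factors), 0.38 (ion channels), -0.044 (fatty acid oxidation) and -0.62 (oncofetal). Without the deepest cells the ventricular median was 1.23. In cells of better quality they were 0.71 (Z disc), -0.97 (atrial) and 1.11 (calcium). Without possible doublets they were -3.30 (atrial), 0.71 (fatty acid oxidation) and -1.01 (oncofetal). Stricter thresholds gave 1.65 (ventricular) and -0.17 (transcription factors), and looser ones -0.36 (oncofetal).

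Female cells gave -1.02 (thick filament), -0.49 (Z disc), -3.00 (atrial), 2.74 (ventricular), -0.23 (calcium) and 0.66 (glycolysis). Male cells gave -0.65 (atrial), 2.08 (ventricular), 0.95 (calcium), 0.82 (oxidative phosphorylation), 0.71 (glycolysis) and -2.84 (oncofetal). Cells under 0.1% Myl2 gave -0.33 (thick filament), -0.20 (thin filament), -0.72 (Z disc), -0.18 (atrial), -1.23 (transcription factors), -1.76 (calcium), -1.47 (ion channels), -0.81 (hormones), -0.50 (oxidative phosphorylation), -0.80 (fatty acid oxidation), -0.41 (glycolysis), -0.94 (G2 and M), -1.72 (immediate early) and -2.48 (oncofetal), with Myl3 at -2.12 and Lmo7 at -1.37. Actc1 at 0.2% or more gave -0.15 (thick filament), -0.25 (Z disc), -1.98 (atrial), 0.89 (ventricular), -0.045 (transcription factors), -0.013 (calcium), -0.060 (fatty acid oxidation), 0.10 (glycolysis) and -0.85 (oncofetal). At least 1% mitochondrial UMIs gave -2.08 (atrial) and 2.16 (ventricular).

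In Myl2-rich cells 47 genes were lower with a size factor and 25 at 1% mitochondrial UMIs or more. At 20 UMIs 258 were higher and 239 lower, and at 200 UMIs 8 and 14. The atrial median and Myl7 turned to 0.022 with equal weights, and calcium to -0.29 in cells of better quality. Between the kinds 451 were higher and 525 lower at 20 UMIs, 42 and 31 at 200 UMIs, and 99 and 101 without possible doublets. There 77 were lower in cells of better quality, where calcium was 0.32, and 55 were higher at 1% mitochondrial UMIs or more.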

Other observations

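A Myl2-poor cell of the heterozygous mother's library carried 14 UMIs of Shox2 with 715 Myl7 UMIs and none of Nppa, Sln or Myl2, among 23982 UMIs of which 6.60% were mitochondrial. Shox2 is known as a gene of the venous pole of the heart. Shox2 UMIs were otherwise found in 2 members, both Actc1-low, with 1 and 2 UMIs, and this cell was picked after its values were seen.

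Of the 154 Mgp UMIs of Myl2-rich cells with the null mother, 98.0% came from 1 cell, and the 63 Gal UMIs came from 1 cell as well. With the heterozygous mother 6 Myl2-rich cells held 6 Mgp UMIs, and Gal was at 0.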
